A study of Mus musculus with 30 samples.

Results

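The genes altered by indoxyl sulfate (IS) in the presence of pNaKtide were determined by comparing the 5 IS + pNaKtide libraries with the 5 pNaKtide libraries, which are 10 of the 30 RNA-seq libraries of the series. The libraries were chosen by their treatment labels alone, and all 10 were used. The cells were mouse 3T3-L1 preadipocytes, a fibroblast-derived cell line, that had been brought into adipogenesis for 5 days in medium with insulin, dexamethasone, isobutylmethylxanthine and indomethacin, so both groups carried these agents. The IS + pNaKtide cells received IS at 100 µM together with pNaKtide at 0.7 µM, and the pNaKtide cells received the peptide at 0.7 µM without IS. The labels give 5 days for the treatment, whereas the study's methods give a shorter exposure with repeated dosing. The other 4 groups, of 5 libraries each, were cells in adipogenic medium alone (Control), IS alone at 100 µM, and oxidized low density lipoprotein (oxLDL) at 50 µg/mL without and with pNaKtide. The labels do not say that the 5 replicates of a group were separate cultures, so the p-values below measure the spread between these libraries, which may in part be technical. The comparison asks which genes differ with IS when the peptide is also present.

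IS is a sulfated indole made in the liver from a bacterial product of tryptophan. It is cleared by the kidney and accumulates in renal failure, enters cells through organic anion transporters and is a ligand of the aryl hydrocarbon receptor (AhR), a transcription factor that with its partner Arnt induces Cyp1a1, Cyp1b1 and Tiparp from xenobiotic response elements. pNaKtide is a cell-permeant peptide derived from the Na,K-ATPase that inhibits the Src kinase bound to the pump, and was designed to interrupt the signaling by which the Na,K-ATPase amplifies oxidants. Adipocytes store triglyceride made by enzymes such as Dgat2 and release it through lipases such as Pnpla2 and Mgll, under the control of Pparg and Cebpa.

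The library totals were 11514057, 11590894, 12721665, 12641085 and 13195028 counts in IS + pNaKtide and 9606354, 8734235, 11090548, 10533512 and 8384882 counts in pNaKtide. Each IS + pNaKtide library was deeper than each pNaKtide library (exact permutation test, 2-sided, p = 0.00794, the smallest that 5 against 5 can give, 0.0635 after BH adjustment over 8 library measures). All 8 adipocyte markers were detected, and their summed level was 11870 to 13746 CPM (counts scaled to a common library size) in IS + pNaKtide and 13911 to 17820 CPM in pNaKtide. Preadipocyte and fibroblast markers summed to 3016 to 3910 CPM and 3446 to 5513 CPM, respectively. Macrophage and leukocyte markers summed to at most 8.47 CPM in any of the 10 libraries, with Adgre1, Ptprc, Itgam, C1qa, C1qb and Cd3e at 0, and endothelial markers to at most 0.690 CPM with Cdh5, Tie1 and Emcn at 0. Skeletal muscle markers summed to 14.8 to 19.2 CPM in IS + pNaKtide and 20.5 to 32.9 CPM in pNaKtide, with Myod1, Myog, Ckm, Myh1 and Myh3 at 0, and epithelial markers to 0.723 to 1.797 CPM and 0.996 to 10.1 CPM. The part of these marker differences in the results below was not tested. The RNA extraction label names adipose tissue, whereas the source label names 3T3 cells.

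On principal component analysis of 12561 genes in the 10 libraries, the first component held 57.1% of the variance and the second 17.2%. On the first component the IS + pNaKtide libraries 1 to 5 had scores of -18.7, -6.34, -21.5, -22.3 and -19.2, and the pNaKtide libraries 1 to 5 had scores of 33.2, 35.4, -7.25, 14.1 and 12.4. pNaKtide replicate 3 therefore lay among the IS + pNaKtide libraries on this axis, and pNaKtide replicates 1 and 2 lay farthest from them. On the second component pNaKtide replicates 4 and 5 (19.6 and 21.9) were apart from pNaKtide replicates 1 to 3 (-12.1, -11.2 and -9.31). The 5 IS + pNaKtide libraries were the tighter group, with a coefficient of biological variation of 7.65% against 14.3% in pNaKtide.

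**Figure D1:**
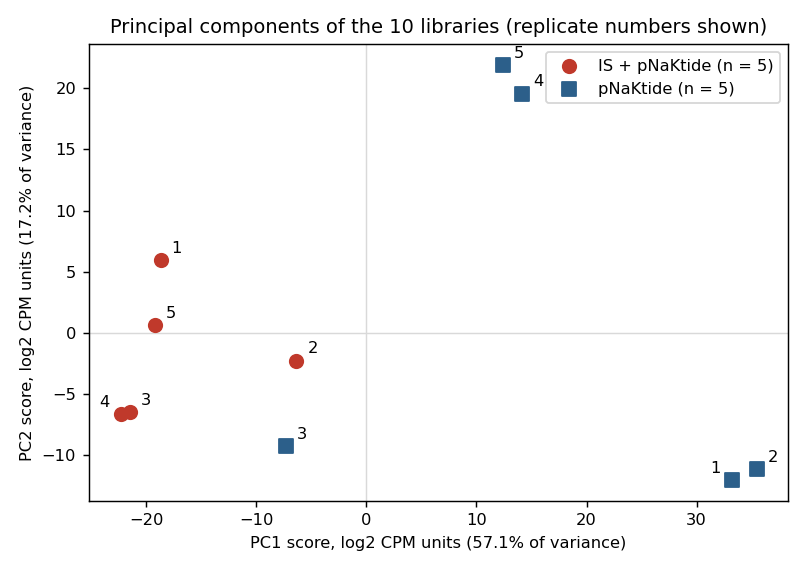
Principal component scores of the 10 libraries, with the first component (57.1% of the variance) on the x axis and the second (17.2%) on the y axis, each point 1 library labelled by its replicate number. pNaKtide replicate 3 sits at -7.25 on the first component, between IS + pNaKtide replicate 2 (-6.34) and replicate 1 (-18.7), and pNaKtide replicates 1 and 2 sit at 33.2 and 35.4.

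Of 20139 genes over the threshold of 14 counts in the 30 libraries, 3388 (16.8%) were altered by IS in the presence of pNaKtide at a BH-adjusted p-value of 0.1. Of these, 1768 (8.78%) were higher and 1620 (8.04%) were lower in IS + pNaKtide. The changes were small, with a median absolute log2 fold change of 0.46 among the altered genes and 244 altered genes over 2-fold, while the median log2 fold change over all tested genes was 0.04. The 5 libraries of one group did not overlap with the 5 of the other for 1931 genes (9.59%), of which 953 (4.73%) were higher and 978 (4.86%) lower. With GC content and gene length trends removed, 2199 genes (10.9%) were altered, 858 (4.26%) higher and 1341 (6.66%) lower, and with scaling to the library size alone, which moved the median of all genes to 0.15, 3340 were higher and 1036 lower. DESeq2 called 4709 genes (23.4%), and a model of the 10 libraries alone 5393 (26.8%).

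The number of altered genes depended on single libraries. It was 22 without pNaKtide replicate 1, 23 without pNaKtide replicate 2, and 2 without both. It was 219, 399, 502 and 1182 without IS + pNaKtide replicates 3, 4, 5 and 1, and 5484 without pNaKtide replicate 3. It was 3531 without IS + pNaKtide replicate 2, and 2113 and 2411 without pNaKtide replicates 4 and 5. The genes and gene groups described below carry this dependence. Control replicate 1 and IS replicate 4, which stood apart from their own groups, entered this comparison only through the estimate of the spread, and without them 5716 genes (28.4%) were altered, 3043 (15.1%) higher and 2673 (13.3%) lower.

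**Figure D2:**
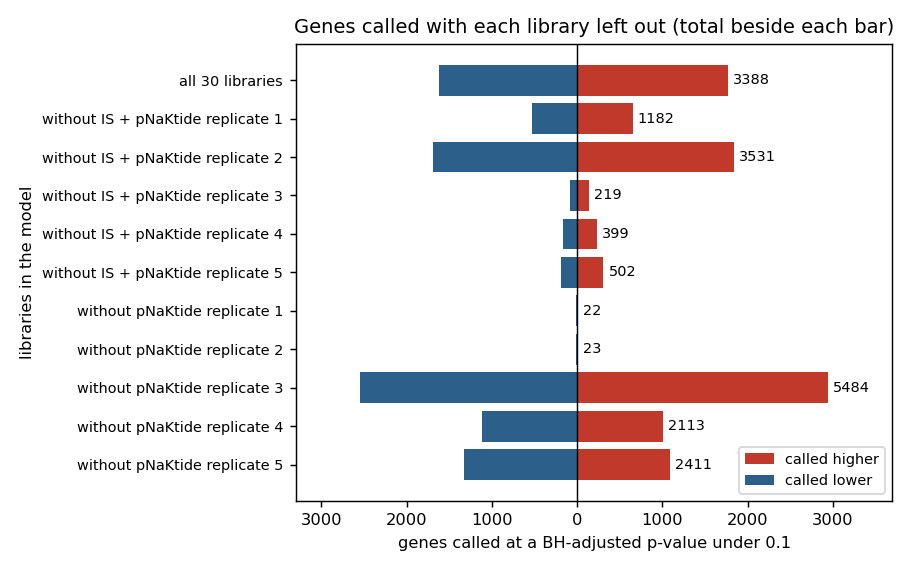
Number of genes called higher (bars to the right) and lower (bars to the left) in IS + pNaKtide at a BH-adjusted p-value under 0.1 on the x axis, with all libraries and with each of the 10 left out in turn on the y axis, and the total beside each bar. Without pNaKtide replicate 1 or 2 the count is 22 or 23 of 20139 genes, and without pNaKtide replicate 3 it is 5484.

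Genes altered with all libraries and also in each of the 10 fits that leave out a library numbered 16, of which 7 were higher and 9 lower in IS + pNaKtide. This set was chosen after its values were seen. It included secreted and matrix proteins, lipid enzymes and receptors, and 194 genes were altered in at least 8 of the 10 fits. Of the 16, 14 were also altered with GC content and length trends removed (the exceptions were Socs2 and Gm7180), beside 10.9% of all genes. The groups did not overlap for 15 (the exception was Ifit3b), beside 9.59% of all genes. Both counts use the libraries by which the set was chosen, so they give no separate support. Without both pNaKtide replicates 1 and 2, the 2 genes still altered were Prelp and Ifit3b.

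Prelp, a leucine-rich repeat protein of the extracellular matrix (chr1:133910304-133921414, GRCm38), had 82.2, 83.1, 66.9, 68.9 and 73.8 CPM in IS + pNaKtide replicates 1 to 5 and 113, 116, 103, 141 and 146 CPM in pNaKtide replicates 1 to 5. All 5 IS + pNaKtide libraries were below all 5 pNaKtide libraries, with means of 74.96 ± 7.46 and 124 ± 18.6 CPM (SD, n = 5; edgeR log2 fold change -0.73, SE 0.12, BH-adjusted p-value 0.0104). Clca3a1, a chloride channel accessory protein (chr3:144729677-144760977), had 83.3, 75.5, 85.4, 87.3 and 83.6 CPM in IS + pNaKtide and 49.9, 48.4, 63.0, 53.1 and 50.3 CPM in pNaKtide. Its 2 groups were apart in the other direction, with means of 83.0 ± 4.49 and 52.96 ± 5.87 CPM (SD, n = 5; edgeR log2 fold change 0.65, SE 0.11, BH-adjusted p-value 0.0104), and its log2 fold change was 0.39 with GC content and length trends removed. Mgll, the lipase that releases the last fatty acid from monoglyceride, had 11.6, 10.9, 12, 11.3 and 9.39 CPM against 19.6, 18.7, 14.4, 17.8 and 15.23 CPM and was lower in every IS + pNaKtide library (log2 fold change -0.63, SE 0.11, BH-adjusted p-value 0.0114). Dgat2, which catalyzes the final step of triglyceride synthesis, had 193, 207, 224, 229 and 227 CPM against 323, 320.2, 271, 291 and 272 CPM (log2 fold change -0.45, SE 0.09, BH-adjusted p-value 0.0162). Both enzymes of triglyceride turnover were therefore lower in each IS + pNaKtide library than in each pNaKtide library.

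The values in parentheses are log2 fold changes here and in the paragraphs that follow. The other genes higher in all of these fits were Lpar1, a receptor for lysophosphatidic acid (0.73, BH-adjusted p-value 0.0161), Folh1, a membrane-bound glutamate carboxypeptidase (0.86, BH-adjusted p-value 0.0162, and 0.49 with the trends removed), Inafm2 (0.76, BH-adjusted p-value 0.0162), Socs2, an inhibitor of growth hormone and cytokine signaling (0.46, BH-adjusted p-value 0.0133), Pik3ip1, an inhibitor of phosphatidylinositol 3-kinase (0.45, BH-adjusted p-value 0.0155) and Mpzl1, a cell surface glycoprotein that binds the phosphatase Shp2 (0.42, BH-adjusted p-value 0.0114). The other lower genes were Sbsn, a secreted protein first known from epidermis (-0.67, BH-adjusted p-value 0.0104), Pop1, a protein subunit of ribonucleases P and MRP (-0.61, BH-adjusted p-value 0.0114), and Adgrg1, an adhesion G protein-coupled receptor (-0.63, BH-adjusted p-value 0.0435). Lower too were Ifit3b, an interferon-induced gene (-1.61, BH-adjusted p-value 0.0435), the antisense gene Gm13010 (-0.86, BH-adjusted p-value 0.0145) and the pseudogene Gm7180 (-0.47, BH-adjusted p-value 0.0293). Ifit3b shares sequence with its neighbour Ifit3, Gm7180 with its parent gene, and Gm13010 lies opposite another gene. The counts of these 3 are uncertain because no source used here gives the strand setting or the handling of shared reads.

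**Figure D3:**
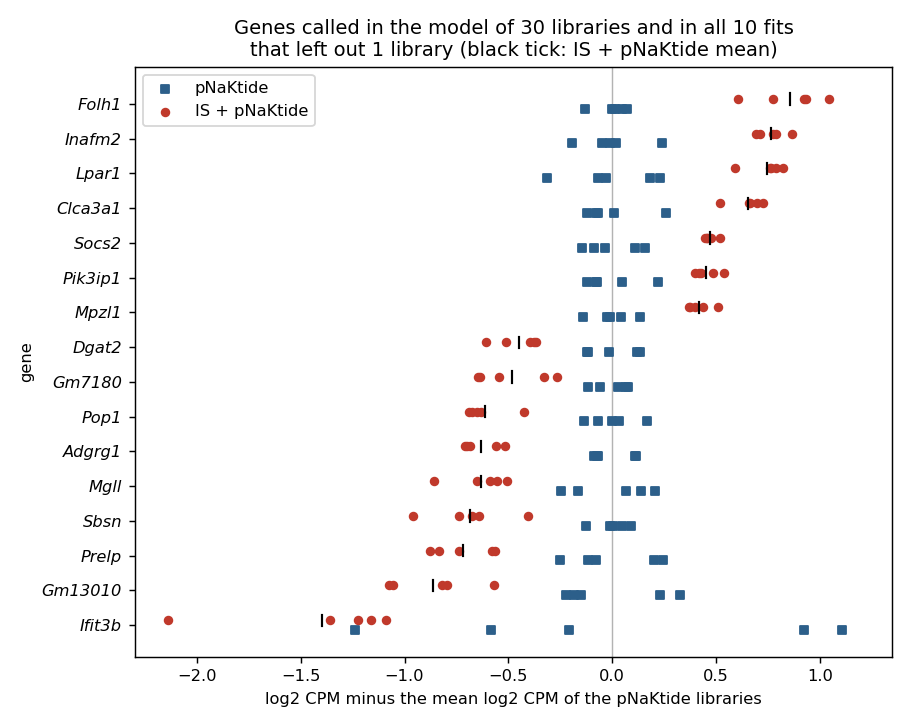
Log2 CPM in each library minus the mean log2 CPM of the pNaKtide libraries (x axis) for the 16 genes altered in every fit that leaves out a library (y axis), with red circles for IS + pNaKtide libraries, blue squares for pNaKtide libraries and a black tick at the IS + pNaKtide mean. The groups are apart for 15 of the 16 genes, and Prelp has means of 74.96 and 124 CPM in IS + pNaKtide and pNaKtide.

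Among AhR pathway genes, Cyp1b1 and Tiparp were higher in IS + pNaKtide, as was Ahr itself at a low level, while Aldh3a1 was lower. Cyp1b1, a monooxygenase of estrogens and polycyclic hydrocarbons (chr17:79701537-79715061), had 309, 302, 305, 310.3 and 307 CPM in IS + pNaKtide and 217, 206, 253, 239.8 and 232 CPM in pNaKtide. Each IS + pNaKtide library exceeded each pNaKtide library, with means of 307 ± 3.19 and 229.7 ± 18.6 CPM (SD, n = 5; edgeR log2 fold change 0.42, SE 0.10, BH-adjusted p-value 0.0435). Tiparp, an ADP-ribosyltransferase that acts back on AhR, had 54.5, 45.3, 55.1, 54.4 and 51.8 CPM against 32.2, 30.04, 47.4, 27.7 and 28.2 CPM (log2 fold change 0.65, SE 0.17, BH-adjusted p-value 0.0457), and pNaKtide replicate 3 stood above its group. For Tiparp all 5 IS + pNaKtide libraries were above the other 4 pNaKtide libraries. Ahr, the receptor, had 1.39, 0.941, 1.68, 1.30 and 1.45 CPM against 0.903, 1.24, 0.815, 0.686 and 0.491 CPM (log2 fold change 0.72, SE 0.26, BH-adjusted p-value 0.0799). Aldh3a1, an aldehyde dehydrogenase induced through AhR in liver, had 1.72, 1.63, 1.30, 1.07 and 1.30 CPM against 2.15, 3.72, 1.27, 2.74 and 2.33 CPM (log2 fold change -0.78, SE 0.26, BH-adjusted p-value 0.0660). The groups overlapped for Ahr and for Aldh3a1. Cyp1a1, the textbook AhR target, was near the limit of detection, with 0 to 0.145 CPM in IS + pNaKtide and 0 to 0.362 CPM in pNaKtide, and no fold change is given. Nqo1, a quinone reductase under AhR and Nrf2, had 23.8 ± 0.814 against 24.3 ± 2.86 CPM (log2 fold change -0.03, SE 0.08, BH-adjusted p-value 0.841). Of 12 AhR genes listed, 10 were tested, 3 were higher and 2 lower, where 8.78% of all genes were higher and 8.04% lower, with a median of 0.03 against 0.04 over all genes. With GC content and length trends removed the median was -0.04, Cyp1b1 was at 0.23, BH-adjusted p-value 0.0284, Tiparp at 0.27, BH-adjusted p-value 0.0325, and Ahr at 0.53, BH-adjusted p-value 0.216, so that Ahr no longer passed.

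The core of the xenobiotic response element is GCGTG, or CACGC on the other strand. It was looked for in the 250 bases before the RefSeq start of the AhR genes (GRCm38.p6) because Cyp1b1 and Tiparp moved and Cyp1a1 was hardly detected. Of 12 AhR genes, 9 had a promoter in the RefSeq table and 5 of these held the core in either orientation (Cyp1a1, Cyp1b1, Tiparp, Arnt and Ahrr), against 28.2% of all 32851 promoters of the table. Cyp1b1 (chr17:79715062-79715311, minus strand) and Tiparp (chr3:65528197-65528446, plus strand) each held 1 core as CACGC, and Cyp1a1 (chr9:57697363-57697612, plus strand) held 1 as GCGTG. The sequences are written 5′ to 3′ in the direction of the gene, with the core in capitals.
Cyp1b1: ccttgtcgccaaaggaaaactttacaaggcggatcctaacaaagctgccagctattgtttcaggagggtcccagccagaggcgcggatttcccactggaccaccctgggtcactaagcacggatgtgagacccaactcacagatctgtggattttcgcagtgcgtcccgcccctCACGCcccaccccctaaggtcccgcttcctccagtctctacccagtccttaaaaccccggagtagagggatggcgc
Tiparp: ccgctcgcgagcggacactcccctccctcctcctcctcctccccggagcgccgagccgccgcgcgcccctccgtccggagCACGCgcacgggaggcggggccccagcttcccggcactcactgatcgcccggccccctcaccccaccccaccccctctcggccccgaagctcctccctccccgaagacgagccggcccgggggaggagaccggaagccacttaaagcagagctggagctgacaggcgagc
Cyp1a1: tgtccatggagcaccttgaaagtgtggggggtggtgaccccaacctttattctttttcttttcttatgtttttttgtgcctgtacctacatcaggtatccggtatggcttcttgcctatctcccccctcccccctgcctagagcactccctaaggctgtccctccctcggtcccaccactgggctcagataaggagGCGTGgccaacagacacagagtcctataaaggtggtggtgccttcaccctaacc
The Nqo1 promoter held no core in this window. Genes with the core thus included 1 measured at 307 CPM and 1 at the limit of detection in the same IS + pNaKtide libraries.

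More adipocyte genes were lower than higher in IS + pNaKtide. Of 28 tested, 12 were lower and 1 higher (8.04% and 8.78% of all genes), with a median log2 fold change of -0.20 against 0.04 over all genes. With the GC content and length trends removed 13 were lower and none higher (6.66% and 4.26% of all genes). The lower genes were Dgat2 and its counterpart Dgat1, the fatty acid synthase Fasn, the acyltransferase Agpat2, the glycerol phosphate dehydrogenase Gpd1, the lipid droplet protein Cidec, the triglyceride lipase Pnpla2, Pck1, which supplies glycerol phosphate from pyruvate, the secreted proteins Adipoq, Retn and Cfd, and Pparg. The 12 ranged from -0.59 to -0.24. Adipoq, the hormone adiponectin (chr16:23146536-23158028), had 723, 786, 978, 983 and 870.2 CPM in IS + pNaKtide and 1348, 1349, 1169, 948 and 937 CPM in pNaKtide (log2 fold change -0.41, SE 0.13, BH-adjusted p-value 0.0561). Pparg, the nuclear receptor that directs adipogenesis, had 135, 142, 154, 157 and 149 CPM against 184, 188, 189.7, 149 and 159 CPM (log2 fold change -0.24, SE 0.09, BH-adjusted p-value 0.0776). For both genes pNaKtide replicates 4 and 5 were within or next to the range of IS + pNaKtide, and replicates 1 to 3 were above it. Cebpa (-0.17, BH-adjusted p-value 0.329), Lpl (-0.20, BH-adjusted p-value 0.140) and Fabp4 (-0.06, BH-adjusted p-value 0.728) did not pass the test. With the trends removed Lpl (-0.53, BH-adjusted p-value 0.0207) and Fabp4 (-0.38, BH-adjusted p-value 0.0366) were lower, and Cebpa (-0.01, BH-adjusted p-value 0.979) again did not pass. The higher gene was Cd36, a fatty acid translocase (log2 fold change 0.37, SE 0.14, BH-adjusted p-value 0.0887), whose log2 fold change was -0.07 with the trends removed. In bulk RNA, fewer adipocytes and less of these transcripts per adipocyte cannot be told apart.

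More cholesterol synthesis genes were lower than higher, and the share that was higher was near that of all genes. Against 8.04% of all genes lower and 8.78% higher, of 23 tested 8 were lower, including Fdps, Mvd, Mvk, Pmvk, Fdft1, Ebp and Dhcr7, and 2 were higher, including Sc5d, the sterol C5-desaturase, with a median of -0.13. Fdps, the farnesyl diphosphate synthase, had 78.1 ± 4.55 against 109 ± 15.6 CPM (log2 fold change -0.48, SE 0.12, BH-adjusted p-value 0.0439), and Sc5d had 43.2 ± 2.24 against 30.2 ± 7.16 CPM (log2 fold change 0.51, SE 0.15, BH-adjusted p-value 0.0529). Removal of the trends left 6 lower and 1 higher, and scaling to the library size alone gave 4 lower and 4 higher. Of the glucocorticoid-responsive genes, for which both groups had dexamethasone in the medium, 4 of 16 were higher (Pdk4, Errfi1, Tsc22d3 and Nr3c1, the receptor itself) and 3 lower (Lcn2, Mt1 and Rasd1), which may be read against the same shares of all genes. Pdk4, the kinase that turns off pyruvate dehydrogenase, had 85.5, 82.9, 76.7, 77.0 and 80.8 CPM against 47.5, 50.8, 63.1, 56.5 and 56.9 CPM (log2 fold change 0.55, SE 0.11, BH-adjusted p-value 0.0162). Lcn2, a siderophore-binding protein secreted by adipocytes, had 288, 315, 129, 125 and 194 CPM against 462, 490.5, 308, 432 and 432 CPM (log2 fold change -1.02, SE 0.25, BH-adjusted p-value 0.0439). The groups were apart for Pdk4, and for Lcn2 IS + pNaKtide replicate 2 overlapped with pNaKtide replicate 3. The median of this list was 0.06, and with the trends removed 3 were higher and 1 lower, with a median of 0.13.

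Most ribosomal protein genes and most nuclear-encoded respiratory chain genes were lower in IS + pNaKtide. Of 79 ribosomal protein genes, 59 were lower and none was higher, with a median of -0.40. Of 75 respiratory chain genes, 41 were lower and none higher, with a median of -0.31, and of 37 proteasome subunit genes 12 were lower and none higher, with a median of -0.20. Over all 20139 genes 8.04% were lower, 8.78% were higher and the median was 0.04. Rplp2, an acidic protein of the ribosomal stalk, had 398, 456, 405, 399.5 and 407 CPM in IS + pNaKtide and 728, 746, 492, 615 and 625 CPM in pNaKtide (log2 fold change -0.63, SE 0.16, BH-adjusted p-value 0.0439). Cox8a, a subunit of cytochrome c oxidase, had 294, 312, 312, 297 and 284 CPM against 525, 535, 379, 432 and 398 CPM (log2 fold change -0.60, SE 0.14, BH-adjusted p-value 0.0435). Psmc2, an ATPase subunit of the proteasome, had 155 ± 7.97 against 190.4 ± 19.3 CPM (log2 fold change -0.30, SE 0.09, BH-adjusted p-value 0.0532). Ribosomal protein genes took 2.95% of counts in IS + pNaKtide and 3.67% in pNaKtide (means of 5; exact permutation test, 2-sided, p = 0.0159, 0.0635 after BH adjustment over 8 measures), and respiratory chain genes 1.71% and 1.94% (exact permutation p = 0.0556, 0.0816 adjusted). The respiratory chain share was 1.67, 1.68, 1.75, 1.74 and 1.71% in IS + pNaKtide and 2.16, 2.17, 1.91, 1.73 and 1.72% in pNaKtide, so that pNaKtide replicates 1 to 3 were above the IS + pNaKtide libraries and replicates 4 and 5 lay among them. The ribosomal protein share was 3.04, 3.32, 2.76, 2.76 and 2.85% against 3.98, 4.02, 3.17, 3.59 and 3.58%, and pNaKtide replicate 3 lay within the IS + pNaKtide range. None of the 15 genes of the mitochondrial genome was altered, with a median of 0.08 (-0.23 with GC content and length trends removed, where 1 was lower), and they took 5.35% and 4.78% of counts (exact permutation p = 0.143). Ribosomal protein genes have many processed pseudogenes, and of 3322 tested processed pseudogenes 564 were lower and 58 higher, so reads shared between the copies are uncertain.

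The direction of change went with gene length and GC content. The genes higher in IS + pNaKtide had a median exon length of 5123 bases and a GC content of 43.8%, the lower genes 1600.5 bases and 53.6%, and all tested genes 3105 bases and 49.4%. In 5 equal groups of genes from the shortest to the longest exon length, the median log2 fold changes were -0.24, -0.05, 0.04, 0.12 and 0.19. With the trends removed they were -0.03, -0.01, -0.02, 0.00 and -0.00. By library, the level of the longest of these groups minus that of the shortest was 0.220 in IS + pNaKtide and -0.225 in pNaKtide on the log2 scale (means of 5; exact permutation p = 0.0238, 0.0635 adjusted), and the part of this in the changes of single genes was not tested. With the trends removed 52 ribosomal, 37 respiratory chain and 15 proteasome genes were lower (6.66% of all genes), and 0, 1 and 0 were higher (4.26% of all genes). The medians of these 3 lists were then -0.30, -0.19 and -0.19. With scaling to the library size alone 45 ribosomal, 30 respiratory chain and 4 proteasome genes were lower, and 0, 1 and 2 were higher. By that scaling 1036 of all genes were lower and 3340 higher.

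**Figure D4:**
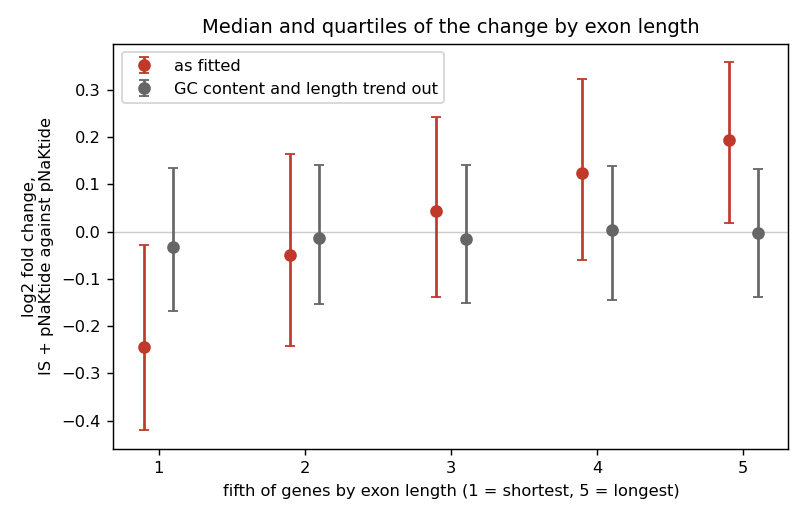
Median log2 fold change of IS + pNaKtide against pNaKtide (y axis, bars from the lower to the upper quartile) in 5 equal groups of genes from shortest to longest exon length (x axis), as fitted and with GC content and length trends removed. As fitted, the medians run from -0.24 to 0.19, and with the trends removed they lie between -0.03 and 0.00.

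Zinc finger genes of the Zfp900 series encode KRAB zinc finger repressors in clusters of near-identical copies. Of 62 tested, 19 were higher and none lower (8.78% and 8.04% of all genes), and 58 were above 0 and 4 below, with a median of 0.66. With the trends removed 8 were higher and none lower (4.26% and 6.66% of all genes), and the median was 0.28. Zfp994 had 5.81, 4.19, 4.82, 6.52 and 5.13 CPM in IS + pNaKtide and 1.02, 1.61, 3.08, 1.57 and 1.11 CPM in pNaKtide (log2 fold change 1.61, SE 0.38, BH-adjusted p-value 0.0435), and pNaKtide replicate 3 was the highest of its group. Among altered genes with a mean of at least 1 on the log2 CPM scale and no overlap of the groups, Zfp994 was the gene with the largest increase. Zfp942 (1.21, BH-adjusted p-value 0.0606) and Zfp944 (1.06, BH-adjusted p-value 0.0529) were also among the 12 largest. So were Zfp51 (1.17, BH-adjusted p-value 0.0538) and Zfp738 (1.07, BH-adjusted p-value 0.0594), which by symbol lie outside the Zfp900 series. Zfp975 had the smallest p-value of the series (log2 fold change 1.45, SE 0.34, BH-adjusted p-value 0.0435). The copies share sequence, so their separate counts are uncertain. The other large increases were those of Spag1, a dynein arm assembly factor (1.14, BH-adjusted p-value 0.0477), Nfatc2ip, a cofactor of the transcription factor NFAT (1.10, BH-adjusted p-value 0.0435), Ints6l, a relative of an Integrator subunit (1.07, BH-adjusted p-value 0.0525), the noncoding Dnm3os, which lies opposite Dnm3 and hosts microRNAs (1.347, BH-adjusted p-value 0.0660) and the genes Gm4924 (1.505, BH-adjusted p-value 0.0627), Gm13230 (1.44, BH-adjusted p-value 0.0810) and Gm11410 (1.41, BH-adjusted p-value 0.0435). Removal of the trends left Gm4924 (0.99, BH-adjusted p-value 0.120), Gm13230 (1.07, BH-adjusted p-value 0.141) and Dnm3os (0.84, BH-adjusted p-value 0.111) short of the threshold. Other increases were also smaller with the trends removed, at 0.74 for Zfp942, 0.79 for Zfp51, 0.61 for Zfp738, 0.67 for Zfp944, 0.66 for Ints6l, 0.84 for Spag1, 1.13 for Gm11410 and 1.03 for Nfatc2ip.

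The 12 largest decreases by the same rule included Ifit3 (-1.51, BH-adjusted p-value 0.0459) and Acta2, the smooth muscle α-actin of contractile fibroblasts (-1.08, BH-adjusted p-value 0.0457). Ifit3, an interferon-induced gene, had 2.37, 2.57, 2.29, 1.38 and 2.82 CPM in IS + pNaKtide and 3.50, 3.48, 4.07, 9.41 and 12.4 CPM in pNaKtide, so that pNaKtide replicates 4 and 5 were the highest and replicates 1 to 3 lay nearer to the other group. Without pNaKtide replicates 4 and 5 its log2 fold change was -0.70 and did not pass the test, and that of Ifit3b was -0.77 and did not pass either. Acta2 had 7.20, 7.19, 3.36, 4.22 and 5.13 CPM in IS + pNaKtide and 13.0, 12.5, 9.05, 9.80 and 13.1 CPM in pNaKtide, so that its groups were apart. Ppp1r1a, an inhibitor of protein phosphatase 1, had 2.29, 2.57, 2.90, 2.22 and 2.46 CPM against 4.52, 4.59, 4.25, 4.12 and 4.67 CPM (log2 fold change -0.83, SE 0.19, BH-adjusted p-value 0.0435). Pemt, which makes phosphatidylcholine from phosphatidylethanolamine, had 4.09, 4.62, 4.20, 4.91 and 3.32 CPM against 8.69, 8.94, 6.07, 7.65 and 5.77 CPM (log2 fold change -0.81, SE 0.19, BH-adjusted p-value 0.0435). Both were lower in each IS + pNaKtide library. The remaining decreases were those of Ybx2, an RNA-binding protein of germ cells (-0.93, BH-adjusted p-value 0.0438), the histone pseudogene Hist1h2al (-0.90, BH-adjusted p-value 0.0541), the histone genes Hist2h2ac (-0.84, BH-adjusted p-value 0.0642) and H2afj (-0.77, BH-adjusted p-value 0.0529), the antisense Gm13010, and the pseudogenes Gm7722 (-0.84, BH-adjusted p-value 0.0479), Gm5781 (-0.84, BH-adjusted p-value 0.0529) and Gm15198 (-0.78, BH-adjusted p-value 0.0463). These 12 still passed with the trends removed, but several were closer to 0, at -0.28 for Gm15198, -0.38 for Hist1h2al, -0.42 for Hist2h2ac, -0.42 for Gm5781, -0.51 for Gm7722, -0.57 for Gm13010 and -0.57 for H2afj. Acta2 was at -1.06 and Ifit3 at -1.54 with the trends removed. Histone genes and these pseudogenes have near-identical copies, and some histone transcripts lack the poly(A) tail on which mRNA libraries select, so these values are uncertain.

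Genes of the Na,K-ATPase, from which pNaKtide derives, and of the Src kinases that it targets were measured as lists. Of 12 pump genes tested, 2 were lower, including the regulator Fxyd5, and none higher (8.04% and 8.78% of all genes), with a median of -0.34, and again 2 and 0 with the trends removed. Src itself had 27.0, 27.2, 27.0, 23.3 and 23.8 CPM against 20.9, 23.2, 22.2, 21.96 and 25.2 CPM (log2 fold change 0.18, SE 0.08, BH-adjusted p-value 0.149), and passed with the trends removed (0.27, BH-adjusted p-value 0.0559). Of 9 Src family genes 2 were higher, Yes1 and Frk, and none lower, against the same shares of all genes, with a median of 0.18. Frk had 11.2, 8.99, 9.02, 7.67 and 9.32 CPM against 4.97, 4.72, 7.51, 5.78 and 4.91 CPM (log2 fold change 0.71, SE 0.20, BH-adjusted p-value 0.0475), and did not pass with the trends removed (0.33, BH-adjusted p-value 0.118). Of 10 Na,K-ATPase signaling genes tested, 1 was higher (Chuk) and 2 were lower (Cdkn1a and Akt2), beside 8.78% and 8.04% of all genes. With the trends removed none was higher and 2 were lower (4.26% and 6.66% of all genes). With scaling to the library size alone 4 were higher and 2 lower. The median log2 fold change of the 10 genes was -0.000371, and 0.12 with scaling to the library size alone.

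Chuk, the IκB kinase α, had 43.4, 34.7, 48.3, 53.8 and 47.9 CPM against 22.7, 23.7, 49.6, 27.0 and 24.7 CPM (log2 fold change 0.62, SE 0.23, BH-adjusted p-value 0.0846), and pNaKtide replicate 3 was at the level of the IS + pNaKtide libraries. With the trends removed Chuk was at 0.27, BH-adjusted p-value 0.178. Cdkn1a, the p21 inhibitor of cyclin-dependent kinases, had 243, 266, 247, 245 and 245 CPM against 343, 354, 274, 293 and 299 CPM (log2 fold change -0.33, SE 0.11, BH-adjusted p-value 0.0634). Akt2 had 263 ± 7.96 against 329 ± 25.7 CPM (log2 fold change -0.32, SE 0.10, BH-adjusted p-value 0.0586), Akt1 305 ± 22.4 against 343 ± 31.8 CPM (log2 fold change -0.17, SE 0.11, BH-adjusted p-value 0.313) and Mapk3 111 ± 5.68 against 127 ± 16.4 CPM (log2 fold change -0.19, SE 0.12, BH-adjusted p-value 0.282). Akt1 and Mapk3 did not pass the test. Tlr4, the receptor for endotoxin, had 11.3, 8.39, 11.8, 10.0 and 10.8 CPM against 8.02, 6.33, 9.96, 6.67 and 6.51 CPM and lay just outside the threshold (log2 fold change 0.48, SE 0.19, BH-adjusted p-value 0.100).

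Of 31 TLR4, NF-κB and cytokine genes, 5 were higher and none lower (8.78% and 8.04% of all genes), with a median of 0.21. They were the kinase subunits Ikbkg and Chuk, the adaptor kinases Map3k7 and Irak4, and Nfkb1, and Ikbkg was at 0.30 (BH-adjusted p-value 0.0479). None of the 31 passed with the trends removed. The cytokines Tnf and Il1b were under the count threshold and were not tested. Of 23 BMP and TGF-β genes, 6 were higher (the receptors Bmpr1a, Acvr2a and Tgfbr1, and Smad1, Smad5 and Smad7) and 1 lower (Tgfb1, the ligand), beside the same shares of all genes. Smad1 had 10.1, 9.59, 8.71, 8.90 and 9.75 CPM against 6.32, 5.34, 7.42, 6.18 and 8.23 CPM (log2 fold change 0.49, SE 0.13, BH-adjusted p-value 0.0459), and Tgfb1 had 52.4, 59.7, 46.0, 43.3 and 50.0 CPM against 77.0, 77.5, 50.1, 89.7 and 89.0 CPM (log2 fold change -0.61, SE 0.19, BH-adjusted p-value 0.0594). The median of this list was 0.17, and with the trends removed 3 were higher and 2 lower. Of 18 LIF and IL6 receptor JAK-STAT genes 3 were higher, led by Socs2, and none lower, with a median of 0.14, and 2 were higher with the trends removed.

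Among p53 targets and cyclin kinase inhibitors, 5 of 22 were higher (Sesn1, Cdkn1b, Fas, Gadd45a and Trp53inp1) and 1 was lower, Cdkn1a (8.78% and 8.04% of all genes), with a median of 0.11. Sesn1, a stress-induced inhibitor of mTORC1, had 53.7, 48.3, 46.2, 50.0 and 51.5 CPM against 34.7, 36.5, 47.4, 37.2 and 32.9 CPM (log2 fold change 0.40, SE 0.10, BH-adjusted p-value 0.0435). Removal of the trends gave 5 higher and 2 lower. Of 10 organic anion transporter genes 1 was higher and none lower, with a median of 0.10 (-0.06 with the trends removed); this was Abcg2, an exporter of urate and organic anions (log2 fold change 0.24, SE 0.09, BH-adjusted p-value 0.0826), whose log2 fold change was -0.23 with the trends removed. None of the 7 NADPH oxidase genes was altered, with a median of 0.10 (-0.01 with the trends removed).

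More antioxidant genes under Nrf2 were lower than higher, where 8.04% of all genes were lower and 8.78% higher. Of 29 tested, 10 were lower (Tkt, Taldo1 and G6pdx of the pentose phosphate pathway, Sod1, Gpx1, Txn1, the ferritin genes Fth1 and Ftl1, the autophagy adaptor Sqstm1 and the Nrf2 inhibitor Keap1) and 3 were higher (Gclc, of glutathione synthesis, and the reductases Txnrd1 and Gsr), with a median of -0.23. Tkt had 522, 573, 539, 533 and 550.2 CPM against 851, 871, 644, 709 and 689 CPM (log2 fold change -0.47, SE 0.14, BH-adjusted p-value 0.0538), and Gclc had 24.6, 20.5, 23.7, 24.3 and 25.4 CPM against 18.9, 17.5, 22.3, 17.9 and 16.7 CPM (log2 fold change 0.34, SE 0.11, BH-adjusted p-value 0.0575). With the trends removed 7 were lower and 2 higher (6.66% and 4.26% of all genes), and Gclc was at 0.24, BH-adjusted p-value 0.104. Of 18 ATF4 targets of amino acid supply, 6 were lower (Pycr1 and Aldh18a1 of proline synthesis, Phgdh, Psat1 and Shmt2 of serine and glycine synthesis, and the transporter subunit Slc7a5) and 2 higher (Vldlr and Ddit4), with a median of -0.24. Pycr1 had 8.51, 11.04, 7.95, 6.06 and 8.02 CPM against 11.9, 13.4, 11.6, 16.2 and 13.4 CPM (log2 fold change -0.68, SE 0.19, BH-adjusted p-value 0.0473), and Vldlr, a lipoprotein receptor, had 150.0 ± 8.39 against 117 ± 11.8 CPM (log2 fold change 0.36, SE 0.10, BH-adjusted p-value 0.0485). For these genes 7 were lower and 1 higher with the trends removed, and Vldlr was at 0.06, BH-adjusted p-value 0.591. Of 24 endoplasmic reticulum genes, 6 were lower and 1 higher, with a median of -0.02. The counts were 6 and 0 with the trends removed, and 3 and 5 with scaling to the library size alone. By that scaling 1036 of all genes were lower and 3340 higher. The lower genes included the secreted factor Manf (-0.36, BH-adjusted p-value 0.0439) and the calcium-binding chaperone Calr (-0.36, BH-adjusted p-value 0.0655). The higher gene was the co-chaperone Dnajb9 (0.38, BH-adjusted p-value 0.0987), which was at 0.07, BH-adjusted p-value 0.694 with the trends removed.

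Genes of the extracellular matrix and the contractile apparatus are set beside 8.04% of all genes lower and 8.78% higher in IS + pNaKtide (6.66% and 4.26% with the trends removed). Of 26 collagen genes, 4 were lower and 2 higher (5 and 2 with the trends removed), with a median of -0.15. Col6a2, a chain of the microfibrillar collagen of fat, had 1888, 1962, 1856, 1841 and 1939.8 CPM in IS + pNaKtide and 2491, 2528, 1987, 3269 and 3313 CPM in pNaKtide (log2 fold change -0.52, SE 0.16, BH-adjusted p-value 0.0553). Its highest libraries were pNaKtide replicates 4 and 5, and without them its log2 fold change was -0.31 and did not pass the test. Col4a5, a basement membrane chain, had 86.9 ± 9.06 against 66.4 ± 12.8 CPM (log2 fold change 0.39, SE 0.13, BH-adjusted p-value 0.0610). Of 44 laminin, integrin and other matrix genes 4 were lower, near the share of all genes, and 2 higher (5 and 1 with the trends removed), with a median of -0.09. The integrin β1 gene Itgb1 was among the higher (0.36, BH-adjusted p-value 0.0498, and 0.15 with the trends removed). With scaling to the library size alone 3 of these matrix genes were lower and 5 higher, and 2 collagen genes were lower and 2 higher. By that scaling 1036 of all genes were lower and 3340 higher. Of 19 contractile genes 4 were lower (Acta2, Actn1, Actg1 and Flna) and none higher, with a median of -0.12, and the counts were again 4 and 0 with the trends removed. The level of a list in a library was taken as the median over its genes of log2 CPM minus the gene's mean over the 10 libraries. For collagens it was -0.22, -0.15, -0.16, 0.48 and 0.42 in pNaKtide replicates 1 to 5, where IS + pNaKtide ranged from -0.17 to 0.02. For the other matrix genes it was -0.21, -0.17, -0.09, 0.29 and 0.33, against -0.11 to 0.12. In both lists pNaKtide replicates 4 and 5 were above every IS + pNaKtide library and replicates 1 to 3 were within or below the IS + pNaKtide range. Contractile genes (0.23 and 0.17) and preadipocyte and fibroblast markers (0.23 and 0.28) were also highest in replicates 4 and 5, where IS + pNaKtide ranged from -0.17 to 0.03 and from -0.23 to 0.04. The part of these markers in the matrix values was not tested.

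Lists of transcription factors, interferon responses and division stand beside 8.78% of all genes higher and 8.04% lower (4.26% and 6.66% with the trends removed). Of 23 immediate early genes, 4 were higher (Klf6, Nr4a1, Egr1 and Egr3) and none lower, with a median of 0.10, and 6 were higher with the trends removed. Klf6, a zinc finger transcription factor, had 42.9, 40.0, 48.6, 49.8 and 47.0 CPM against 26.9, 27.4, 36.7, 32.8 and 30.7 CPM (log2 fold change 0.56, SE 0.14, BH-adjusted p-value 0.0439). Of 18 clock genes 3 were higher and 2 lower (1 and 2 with the trends removed), with a median of 0.19, and the activator Arntl (0.35, BH-adjusted p-value 0.0529) and its repressor Nr1d1 (-0.34, BH-adjusted p-value 0.0526) moved in opposite directions, and Arntl was at 0.22, BH-adjusted p-value 0.131 with the trends removed. Of 23 interferon-responsive genes 2 were lower (Ifit3 and Isg15), near the share of all genes, and none higher. Of 17 genes of MHC class I presentation 2 were higher, led by H2-M3 (0.35, BH-adjusted p-value 0.0627), and 2 lower. Of the 2 lower ones Calr (-0.36) had the smaller p-value, and the other fell more (-0.54). The medians of these lists were -0.15 and -0.12, and with the trends removed 1 interferon gene and 2 presentation genes were lower, and 0 and 1 were higher. Of 30 replication and mitosis genes 3 were lower and 1 higher, with a median of -0.13, and 8 were lower and none higher with the trends removed, with a median of -0.17. The mitotic kinase Plk1 was at -0.56 (BH-adjusted p-value 0.0435). Of 14 abundant noncoding RNAs 1 was higher and none lower (none in either direction with the trends removed), with a median of -0.07. Medians of the endoplasmic reticulum, matrix and noncoding lists changed sign with scaling to the library size alone, to 0.10, 0.03 and 0.04.

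**Figure D5:**
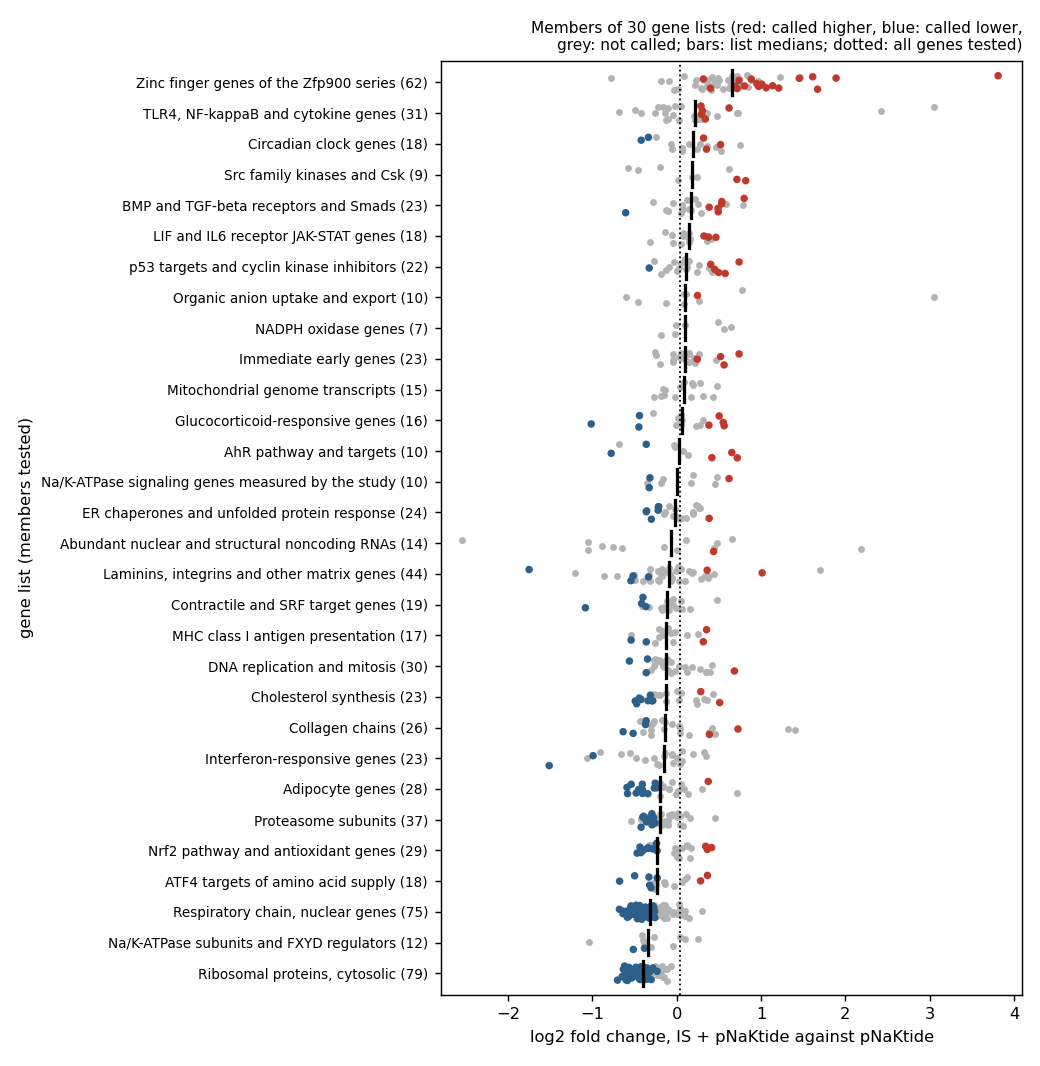
Log2 fold change of IS + pNaKtide against pNaKtide for the tested members of the gene lists, each point 1 gene on the x axis and each of 30 lists on the y axis, with red and blue for genes called higher and lower, grey for the others, a bar at each list's median and a dotted line at the median of all genes. The ribosomal (-0.40) and respiratory chain (-0.31) medians lie below 0 and the median of the Zfp900 series (0.66) above it, while the median over all 20139 genes is 0.04.

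Whether the IS change with the peptide differed from the IS change without it was tested gene by gene, between 10 libraries on each side that share none. IS alone against Control altered 1599 genes (7.94%), and 9140 (45.4%) without Control replicate 1 and IS replicate 4, which stood apart. No gene had a difference between both changes at a BH-adjusted p-value of 0.1 (0%) by edgeR, with 619 at an unadjusted p under 0.05, and DESeq2 gave 0 with 485. With the apart libraries out the count was again 0, with 1556 at an unadjusted p under 0.05. The median SE of the difference was 0.18 on the log2 scale, so that small differences were not detectable.

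The genes altered in both settings numbered 782, which is 23.1% of those altered with the peptide and 48.9% of those altered without it, and all 782 had the same direction. Without the apart libraries 4863 were shared (85.1% of 5716 and 53.2% of 9140), 4857 of them in the same direction. Over 12561 genes the log2 fold changes with and without pNaKtide had a Pearson r of 0.854, and 0.892 without the apart libraries, as a description across genes, which are not independent replicates. IS alone was above Control for 96.4% of the genes higher in IS + pNaKtide and for 3.33% of the lower ones, against 52.4% of all genes. The higher genes had a median of 0.48 with the peptide and 0.34 without it, and the lower genes -0.44 and -0.30. In the fit without the apart libraries, the 3043 higher genes had medians of 0.43 and 0.55 and the 2673 lower genes -0.37 and -0.50, so the order of the sizes with and without the peptide was the reverse. The genes were chosen for their change with the peptide, and the sizes are given with no test. The measure of long against short genes moved in both settings: in Control it was -0.279 to -0.0364 in replicates 2 to 5 and 0.561 in replicate 1, and in IS alone 0.3795 to 0.531 in replicates 1, 2, 3 and 5 and -0.305 in replicate 4. Its part in the shared direction was not tested. With GC content and length trends removed, IS alone was above Control for 94.6% of the 858 higher genes and 4.18% of the 1341 lower ones. The share of all genes was then 52.3%, and IS alone against Control altered 828 genes.

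For single genes with all libraries, Cyp1b1 was at 0.29 (BH-adjusted p-value 0.0882) in IS alone against Control and Tiparp at 0.44 (BH-adjusted p-value 0.116), and the differences of the changes with the peptide from these were 0.13 (95% interval -0.14 to 0.39) and 0.22 (95% interval -0.24 to 0.68). Without the apart libraries the values in IS alone were 0.40 and 0.66, beside 0.42 and 0.65 with the peptide. Ahr itself was at -0.36 (BH-adjusted p-value 0.349) in IS alone with all libraries and -0.17 without the apart libraries, against 0.72 with the peptide, a difference of 1.07 (95% interval 0.38 to 1.77) that did not pass BH adjustment. Of the 16 genes altered in every fit, 13 were altered in the same direction in IS alone without the apart libraries, and the exceptions were Mpzl1 (0.11), Ifit3b (0.27) and Gm7180 (-0.21). In that fit 45.4% of all genes were altered in IS alone. Of the 5716 genes altered with the peptide in that fit, 4863 (85.1%) were also altered in IS alone. With all libraries the differences were 0.32 (95% interval 0.11 to 0.52) for Mpzl1 and -1.76 (95% interval -2.85 to -0.68) for Ifit3b. The genes with the smallest unadjusted p in the direction of a higher value with the peptide were Tmem268, with a difference of 0.48 (95% interval 0.25 to 0.71), 4931440F15Rik, with 0.81 (95% interval 0.38 to 1.24), and Extl2, a glycosyltransferase of glycosaminoglycan synthesis, with 0.40 (95% interval 0.19 to 0.62). In the direction of a lower value with the peptide they were Pck1, the phosphoenolpyruvate carboxykinase of glyceroneogenesis, with a difference of -0.47 (95% interval -0.73 to -0.21), 2310015A10Rik, with -0.83 (95% interval -1.32 to -0.35), and Ifit3b, given above. None of these passed BH adjustment by edgeR.

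The effect of oxLDL in the presence of the peptide is given beside that of IS, as both use the same pNaKtide libraries. In oxLDL + pNaKtide against pNaKtide 5 genes (0.0248%) were altered by edgeR, and 95 (0.472%) by DESeq2. Cyp1b1 was at -0.11, Tiparp at -0.14, Prelp at 0.07, Clca3a1 at -0.14 and Mgll at 0.06 in oxLDL + pNaKtide, against 0.42, 0.65, -0.73, 0.65 and -0.63 in IS + pNaKtide, as log2 fold changes over pNaKtide. The medians of the ribosomal, respiratory chain and adipocyte lists were 0.11, 0.08 and 0.12 with oxLDL and -0.40, -0.31 and -0.20 with IS. The difference between these agents was not tested.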

How the data were processed

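RNA-seq was performed on 30 libraries of 3T3-L1 cells in 6 groups of 5, and the 10 libraries of IS + pNaKtide and pNaKtide were compared here. The authors prepared stranded mRNA libraries, sequenced paired ends, trimmed the reads with Trimmomatic 0.38, aligned them to GRCm38 with HISAT2 2.1.0 and deposited a table of raw counts of reads per gene made with the GenomicAlignments package. Their own tests used DESeq2 (1.20.0 in the submitters' notes). The annotation release counted and its strand setting were not given in any source used here. The authors also deposited FPKM values, which were used only in an alternative, on the log2(FPKM + 1) scale. Their normalized counts were not used. All columns of per-sample values used were matched to a library by name, and totals ranged from 6945498 to 15159877 counts over the 30 libraries.

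Groups came from the treatment labels. Genes with more than 14 counts over the 30 libraries (20139 of 54232) were tested with edgeR 4.0.16 in R 4.3.3 (quasi-likelihood test, TMM scaling, robust estimation, 1 model of 6 groups) at a BH-adjusted p-value of 0.1. Log2 fold changes are edgeR's, and levels are CPM. The contrasts were IS + pNaKtide against pNaKtide, IS against Control, the difference between these, and oxLDL + pNaKtide against pNaKtide. Library measures were compared by exact permutation tests (2-sided). Alternatives were DESeq2 1.42.0, limma 3.58.1 with FPKM on the log2 scale above (mean FPKM 0.5 or more), other scalings and filters, libraries thinned to 8384882 counts, removal of GC content and exon length trends (mgcv 1.9.3, GENCODE M21 models, 99.8% of tested genes), a replicate block, and fits without single libraries. The scripts were tested on simulated data. Fits without both pNaKtide replicates 1 and 2, without both replicates 4 and 5, and with the trends and the apart libraries out were added after the data were seen. Pairs of libraries within each group differed by more than sampling noise (lowest chi-square per degree of freedom 1.28 over 10 pairs of IS + pNaKtide and 1.35 over 10 pairs of pNaKtide), so none was treated as a repeat deposit of another. This does not show separate cultures, since separate preparations of 1 culture would also differ by more than sampling noise.

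The named genes were the 12 largest changes in each direction among altered genes whose mean log2 CPM reached 1 and whose libraries were apart, 29 genes fixed by name (26 tested, 5 higher, 3 lower), the altered gene with the smallest p in each direction of each list, up to 3 genes a direction for the difference, and the 16 genes altered in every fit. Not all are described, and some are not reported here. The 30 gene lists, the markers and the comparison were chosen with earlier results of these data known. Promoter sequences came from RefSeq (GRCm38.p6). Counts cover sampling of reads only, and molecules were not tagged.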

Additional observations from a re-analysis of the deposited data

Results flagged for a closer look

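In groups of 5, the highest or lowest library was tested by Dixon's 95% critical value for the gap to its neighbour. Of 192 groups tested, for the genes named above and the library measures, 15 (7.81%) stood out, and chance gives about 1 in 20. pNaKtide replicate 3 stood out in 8 of them. It was high for Zfp994 (3.08 CPM, others 1.02 to 1.61), Tiparp (47.4 CPM, others 27.7 to 32.2), Chuk (49.6 CPM, others 22.7 to 27.0), Sc5d (42.9 CPM, others 25.9 to 28.4) and Vldlr (137 CPM, others 107 to 115). It was low for Akt1 (288 CPM, others 347 to 368), for 4931440F15Rik (2.17 CPM, others 3.48 to 3.68) and in the log2 difference between the quintiles of highest and lowest GC content (-0.252, others 0.333 to 0.440).

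IS + pNaKtide replicate 2 was high for the stalk protein gene Rplp2 (456 CPM, others 398 to 407), the chaperone gene Calr (1520.4 CPM, others 1349 to 1392) and Cdkn1a (266 CPM, others 243 to 247), and low in the log2 difference between the quintiles of longest and shortest genes (-0.0169, others 0.249 to 0.303). IS + pNaKtide replicate 3 was high for Pop1 (18.2 CPM, others 15.1 to 15.8) and low for Lpar1 (21.4 CPM, others 24.1 to 25.1). pNaKtide replicate 1 was low for Tmem268 (10.95 CPM, others 12.8 to 13.3). No cause of these was tested.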

How the results depend on the processing

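The 3388 genes altered by IS in the presence of pNaKtide became 1862 with genes of at least 1 count, 2199 with GC content and length trends removed, 464 at an adjusted p of 0.05, 5393 with the 10 libraries alone in the model, 5716 without Control replicate 1 and IS replicate 4, 2 without pNaKtide replicates 1 and 2, and 22 to 5484 without single libraries. The count stayed within 1.5 times with DESeq2 (4709), of which 3174 were shared. Correlations of the deviations of same-numbered libraries were of mixed sign (-0.26, 0.35, 0.27, -0.16 and 0.16). They do not decide whether the replicate numbers pair the libraries. With the replicate block 4633 genes were altered (2702 with the trends also removed). IS against Control altered 1599 genes, 3160 with DESeq2, 0 with its 10 libraries alone (3465 at an unadjusted p under 0.05 by edgeR), 3423 with the replicate block, 9140 without the apart libraries, and 6694 and 6952 without Control replicate 1 and IS replicate 4. oxLDL + pNaKtide altered 5 genes, 95 with DESeq2, 0 with its libraries alone (805 at an unadjusted p under 0.05 by edgeR) and 19 without the apart libraries. The difference between the IS changes gave 0 genes in each alternative run, with 532 to 850 at an unadjusted p under 0.05 without single libraries. Genes that reversed were Nqo1 (0.0827 with library size alone, 0.00923 without pNaKtide replicates 1 and 2, -0.0726 to 0.0185 without single libraries), Fabp4 (0.0547 with library size alone), and the log2 fold change of Cd36 and the log2 fold change of Abcg2 with the trends removed (-0.0680 and -0.233, also -0.0680 and -0.232 without the apart libraries and -0.0674 and -0.235 with the block). Of 1583 values of named genes in alternatives that leave out no single library, 1362 kept direction and side of the threshold, 183 no longer passed, 29 passed newly and 9 reversed. The cause of these changes was not tested. At the depths of 8384882 to 13195028 counts, genes near 1 CPM rest on about 8 to 13 counts a library.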
